A study of Mus musculus with 8 samples.

Results

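The comparison set bone marrow hematopoietic stem cells (HSCs) that carry 1 NrasG12D allele beside 1 wild-type allele, NrasG12D/+, against wild-type HSCs, Nras+/+. The mice are labelled as strain B6, and total RNA was hybridised with Cy3 label on 1-colour Agilent arrays, 1 sample per array, with 3 NrasG12D/+ and 2 Nras+/+ arrays. The labels name no age, sort gates, number of animals per sample or means of switching on the mutant allele, and do not call the samples separate animals. The spread behind each p-value is thus that of these samples alone and may be technical. A gene was described if its name in the files had a probe flagged well above background on all 5 arrays. Of 27745 gene names on the array, 7681 met this rule, 7636 of them with a value that could be tested, and 7563 with a value on every array. Of the 7636 genes, 6340 matched a RefSeq symbol and 1296 kept the name in the file. The linear model was fitted over all 15081 genes tested and also held the 3 NrasG12D/G12D arrays of the series, which share its estimate of the spread.

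Nras is a small GTPase that passes signals from growth factor receptors to the RAF, MEK and ERK kinases and to PI3K. It is active while it holds GTP, and the G12D form hydrolyses GTP poorly and so remains active for longer. ERK output is held back by feedback genes such as the Dusp phosphatases and the Sprouty proteins. HSCs are rare cells that divide seldom and renew the whole blood system, and they keep their rate of protein synthesis low.

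All levels below are log2 processed signals relative to a reference within each array, the 75th percentile over probes detected well above background on each of the 8 arrays, so that 0 is the reference and each unit is a doubling. A log2 change is the NrasG12D/+ mean minus the Nras+/+ mean, and levels of different probes are not compared. Both Nras+/+ arrays lay on the same slide as NrasG12D/+ arrays 1 and 2, called slide 1, while NrasG12D/+ array 3 lay on slide 2. Over the 7636 genes the median absolute log2 difference between the Nras+/+ arrays was 0.74. NrasG12D/+ array 3 differed from them by 0.68 and 0.68, less than the controls differed from each other. By correlation over the same genes, the controls were the nearest pair, at 0.748, beside 0.726 and 0.729 for NrasG12D/+ array 3 with Nras+/+ arrays 1 and 2. NrasG12D/+ array 1 differed from the Nras+/+ arrays by 1.14 and 1.41, and from NrasG12D/+ array 3 by 1.25. NrasG12D/+ array 2 lay between, at 0.85 and 1.17 from the controls. NrasG12D/+ arrays 1 and 2 differed from each other by 0.82, and arrays 2 and 3 by 0.98. NrasG12D/+ array 3, on the other slide, was thus closer to the controls than to the mutant arrays, and values on slide 1 alone are given beside results. Genotype and slide are crossed only on slide 1. In 3780 of the 7636 genes the change between genotypes was larger than the difference between the Nras+/+ arrays. The change is between means of 3 and 2 arrays and the control difference between 2 single arrays, so they are unlike measures.

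**Figure D1:**
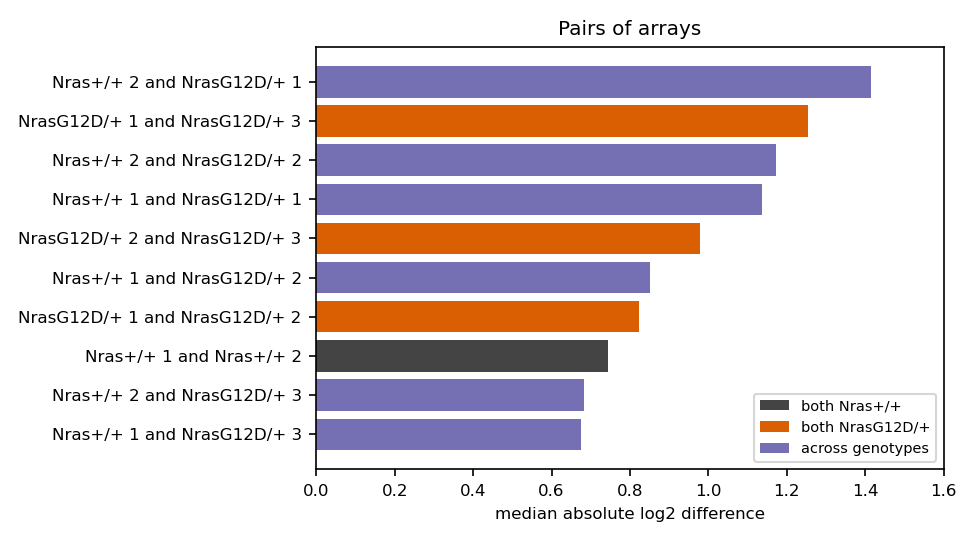
Median absolute log2 difference between each pair of arrays (horizontal axis) over 7636 genes, coloured by whether both arrays are Nras+/+, both are NrasG12D/+ or the pair crosses genotypes. The smallest differences, 0.68, are those of NrasG12D/+ array 3 with the Nras+/+ arrays, and the largest, 1.41, is that of NrasG12D/+ array 1 with Nras+/+ array 2.

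The labelled cell type was checked against 16 defining HSC markers. Of these, 9 had a probe well above background on all 5 arrays, among them Esam, Fgd5, Lmo2, Ly6a, Meis1, Mllt3, Slamf1 and Tal1. Erg was detected on 2 arrays, Cd34, Hlf, Kit and Mecom on 1, and Gata2 and Procr on 0. The level of the 9 markers was summed on a linear scale with the reference at 1. The sum was 10.3 to 11.3 on the Nras+/+ arrays and 6.84 to 9.13 on the NrasG12D/+ arrays, so that the groups did not overlap. This separation rested on Ly6a, at 0.87 and 1.25 in Nras+/+ and -1.73 to -0.96 in NrasG12D/+ on the log2 scale. Without Ly6a the sums of the groups overlap, so they show no shared fall of the marker set. The median log2 change of the 9 was -0.59, beside -0.39 over all genes described, and the largest change was that of Ly6a, at -2.32. The part of the general shift in the lower sum was not tested. In bulk samples, fewer cells of a type and less RNA per cell cannot be told apart. Of the neutrophil markers, 3 of 15 were detected on all 5 arrays. Their summed level was 0.886 to 1.05 in Nras+/+ and 164, 0.969 and 6.89 on NrasG12D/+ arrays 1, 2 and 3. The value of 164 came from Mpo, the granule peroxidase, at 7.36 on NrasG12D/+ array 1 and between -1.43 and -0.48 on the other 4 arrays. The sum of 6.89 on NrasG12D/+ array 3 thus did not come from Mpo. Summed T and NK cell markers were 5.01 to 5.83 in Nras+/+ and 1.74 to 7.73 in NrasG12D/+, erythroid markers 3.53 to 3.57 and 1.88 to 10.8, and B cell markers 2.97 to 4.62 and 2.61 to 4.06. Monocyte and macrophage markers stood at 0.992 to 1.58 and 1.05 to 2.38, megakaryocyte markers at 2.70 to 6.18 and 4.24 to 6.05, mast cell and basophil markers at 0.989 to 2.65 and 0.296 to 1.07, and endothelial and stromal markers at 1.03 to 4.45 and 0.702 to 1.84. The part of these other cell types in the results below was not tested.

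The probes behind the main identity genes are short stretches of the transcripts. The 60-base Nras probe lies on chromosome 3 (chr3:103195287-103195346, plus strand, build not stated in the files), the Ly6a probe on chromosome 15 (chr15:74822378-74822437, minus strand). The 30 bases at the 5′ end of each are given to show what was measured; the files do not say which exon they lie in.
Nras: actaatcagaagggggaacaaacatttgct
Ly6a: tatgagttatagaagctccaaggtgggagt
Nothing in the deposited columns sets the G12D allele apart from the wild-type allele, so the Nras level does not check the genotype labels.

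No gene was called in NrasG12D/+ HSCs. At an adjusted p under 0.05 (limma with Benjamini-Hochberg adjustment) 0 of 15081 genes passed, a background of 0.0%, and the lowest adjusted p among the 7636 genes described was 0.809. At an unadjusted p under 0.05, limma gave 244 of these genes (3.2%), 106 with a higher and 138 with a lower mean in NrasG12D/+, beside a background over all genes tested of 4.74%, or 2.31% higher and 2.43% lower. The share among the genes described was thus below the background in each direction. The split turned with the scaling, to 177 higher and 102 lower with scaling to the median, and to 115 higher and 251 lower with quantile normalization. All 3 NrasG12D/+ arrays lay above both Nras+/+ arrays for 518 genes (6.78%, background 8.77%) and below both for 1391 (18.2%, background 16.2%). On slide 1 alone the counts were 875 above (background 14.8%) and 3210 below (background 33.3%).

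The excess of lower values went with the level of the gene and with the array. The median log2 change was -0.27 over all genes tested and -0.39 over the genes described, of which 2710 had a higher and 4926 a lower mean (a higher mean had 41.6% of all genes tested). Split into 4 equal classes by mean level, the median change was -0.60 among the dimmest 1909 genes, -0.43 and -0.22 in the middle classes and -0.16 among the brightest. In the dimmest class NrasG12D/+ arrays 1 and 2 had medians of -1.14 and -0.82 relative to the control mean, and NrasG12D/+ array 3 had 0.01. In the brightest class the same arrays had -0.40, -0.37 and -0.07. The arrays with the lower medians, NrasG12D/+ 1 and 2, also had the largest shares of spots above background, 41% and 42.4%, against 36% and 30.8% on the Nras+/+ arrays and 28.5% on NrasG12D/+ array 3. The part of this in the count of lower genes was not tested. With scaling to the median in place of the 75th percentile the median change of the genes described was -0.12, and the count of genes below both controls was 1077.

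**Figure D2:**
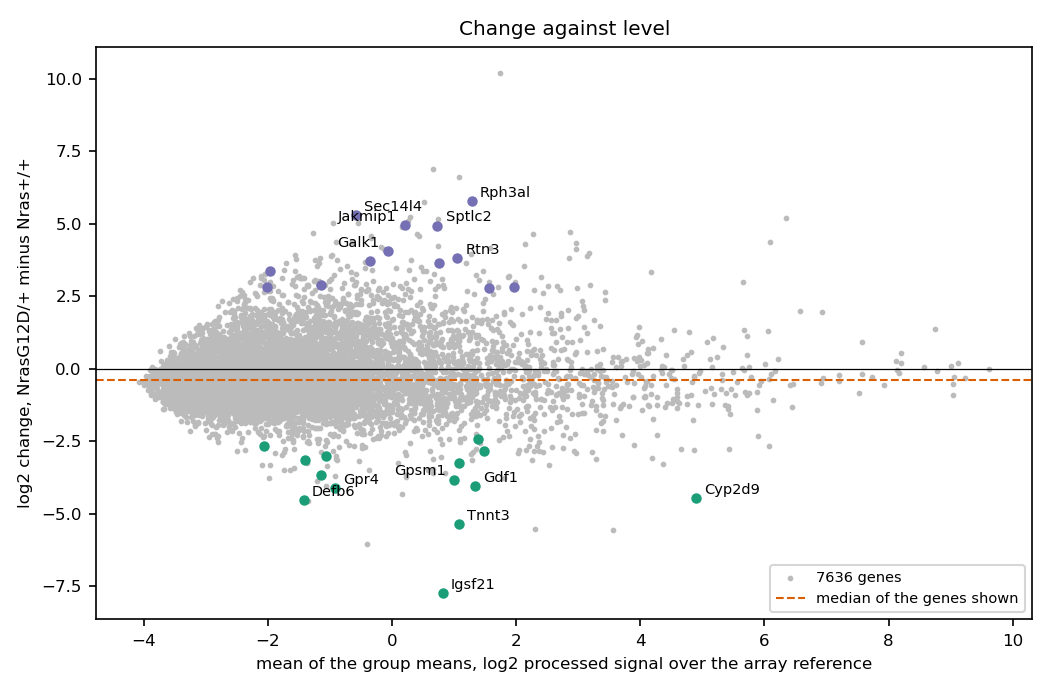
Log2 change, NrasG12D/+ minus Nras+/+ (vertical axis), against the mean of the group means (horizontal axis, log2 over the array reference) for 7636 genes in grey, with 27 genes of lowest p whose groups do not overlap in colour, purple for higher and green for lower. The dashed line is the median change of -0.39; Igsf21 lies lowest among the coloured genes, at -7.74, and Rph3al highest, at 5.79.

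Single changes were large and uncertain. Standard errors of the log2 changes had a median of 0.90. An absolute change over 1 was seen in 2809 genes and over 2 in 553. The Nras+/+ arrays alone differed by more than 1 in 2731 genes and by more than 2 in 861. Differences between single arrays vary more than those between means, so these counts are not on 1 scale. The genes named next are the 14 of lowest p in each direction among genes with a RefSeq symbol and groups that do not overlap. Each had an adjusted p of 0.809 (limma). They are a description of these arrays, since the rule used this contrast.

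The 14 genes with a higher mean in NrasG12D/+ were of various kinds. Sptlc2, a subunit of the serine palmitoyltransferase that opens sphingolipid synthesis, measured -2.48 and -1.0 on the Nras+/+ arrays and 1.65, 3.85 and 4.11 on the NrasG12D/+ arrays. Its change was 4.94 (SE 1.04), a 30.7-fold higher mean, and 4.49 on slide 1. Galk1, the galactokinase, stood at -2.58 and -1.64 against 2.18, 1.91 and 1.80, a change of 4.07 (SE 0.90). The 3 NrasG12D/+ arrays agreed within an SD of 0.20 for this gene, and the groups lay far apart. Rph3al, a Rab effector in exocytosis, stood at -1.93 and -1.30 against 4.03, 4.05 and 4.44, the largest change of the 14 at 5.79 (SE 1.28). Again the mutant arrays of both slides were close together.

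Other higher genes varied more between the NrasG12D/+ arrays. Sec14l4, a lipid-binding protein of the SEC14 family, stood at -2.85 and -3.63 against -0.34, 3.26 and 3.28 (change 5.31, SE 1.40). Jakmip1, a microtubule-binding protein that binds Janus kinases, stood at -2.27 on both controls against 1.04, 1.40 and 5.59 (change 4.95, SE 1.26). NrasG12D/+ array 1 was thus the lowest mutant array for both genes, and array 3 the highest. Lig1, the ligase that joins Okazaki fragments in DNA replication, stood at 0.43 and -0.12 against 3.66, 3.53 and 1.69 (change 2.80, SE 0.88). Ramp1, part of the receptor for calcitonin gene-related peptide, stood at -3.74 and -3.58 against 0.28, 0.67 and -1.80 (change 3.38, SE 0.98). For these, the arrays of slide 1 were the higher ones, with changes of 3.44 and 4.14 on slide 1. Also among the higher genes were Rtn3, a reticulon of the endoplasmic reticulum (3.81), Flna, the actin cross-linker filamin A (3.71), Cacna1s, a voltage-gated calcium channel subunit of skeletal muscle (3.66), Krt36, a hair keratin (2.90), the olfactory receptor Olfr970 (2.84) and Ciz1, a zinc finger protein of DNA replication (2.81).

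The 14 genes with a lower mean were as varied. Igsf21, a cell adhesion protein of the immunoglobulin superfamily, stood at 4.17 and 5.20 in Nras+/+ against -4.09, -2.93 and -2.14 in NrasG12D/+. Its change of -7.74 (SE 1.49) was the largest of the 28, and it was -8.20 on slide 1. Tnnt3, the troponin T of fast skeletal muscle, stood at 3.66 and 3.87 against -3.17, -1.51 and -0.14 (change -5.37, SE 1.0). Defb6, a beta-defensin, headed the 14 by p and stood at 0.14 and 1.53 against -3.95, -3.68 and -3.44 (change -4.53, SE 0.83). The 3 mutant arrays lay within an SD of 0.25 for Defb6, whereas for Tnnt3 they spread with an SD of 1.51.

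Gpr4, a receptor that senses protons, stood at 2.0 and 0.26 against -2.09, -4.46 and -2.37 (change -4.11, SE 0.95). Gdf1, a ligand of the TGF-beta family that shares a transcript with Cers1, so that the 2 cannot be told apart here, stood at 3.08 and 3.64 against -2.04, -0.20 and 0.17 (change -4.04, SE 0.90). Gpsm1, a modulator of heterotrimeric G proteins, stood at 2.32 and 3.49 against -0.95, -2.06 and 0.27 (change -3.82, SE 0.88). All mutant arrays lay well below both controls for these genes. Ndp, named Ndph in the files and the gene of the Frizzled ligand norrin, stood at 3.03 and 2.40 against 0.51, -0.50 and -1.63 (change -3.25, SE 0.85). Wdsub1, a protein with WD repeats and a U-box, was among the least variable, at 0.33 and 0.53 against -2.77, -2.37 and -2.59 (change -3.0, SE 0.75). Tns2, a focal adhesion protein named Tenc1 in the files, had the smallest change of the 14, -2.41. Between these lay Slc4a8, a sodium and bicarbonate transporter (-3.65, SE 0.95), Pdha1, the E1 alpha subunit of pyruvate dehydrogenase (-3.14), Itih4, a plasma protein made by the liver (-2.82), and Kcnab1, a potassium channel subunit (-2.65). The Slc4a8 value rested on Nras+/+ array 1, at 2.17 beside -0.81 on array 2, and was -2.16 without it.

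Cyp2d9, a cytochrome P450 of the liver, was the gene of the 28 with a further detected probe that gave a similar change. The tested probe stood at 6.16 and 8.10 in Nras+/+ against 1.66, 3.71 and 2.61 in NrasG12D/+ (change -4.47, SE 1.08), and the other at 6.57 and 8.36 against 1.25, 3.96 and 2.60 (change -4.86). The probes lie on chromosome 15 at chr15:82284133-82284192 and chr15:82284166-82284225 (plus strand, build not stated), and share 27 of their 60 bases, so they are not independent of each other. The 30 bases at the 5′ end of each are printed to show what was measured; they start 33 bases apart and so do not themselves overlap. The gene belongs to a family of near-identical Cyp2d genes whose signals could mix.
Cyp2d9 tested probe: gaaagatgagtctgtctgggagaagcccct
Cyp2d9 other probe: cttccatcctgaacacttcctggatgccca
The other genes of the 28 with a further probe detected on all 5 arrays gave smaller or opposite values there: 0.44 for Ciz1, -0.98 for Rtn3, 0.03 for Flna and -0.91 for Pdha1.

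**Figure D3:**
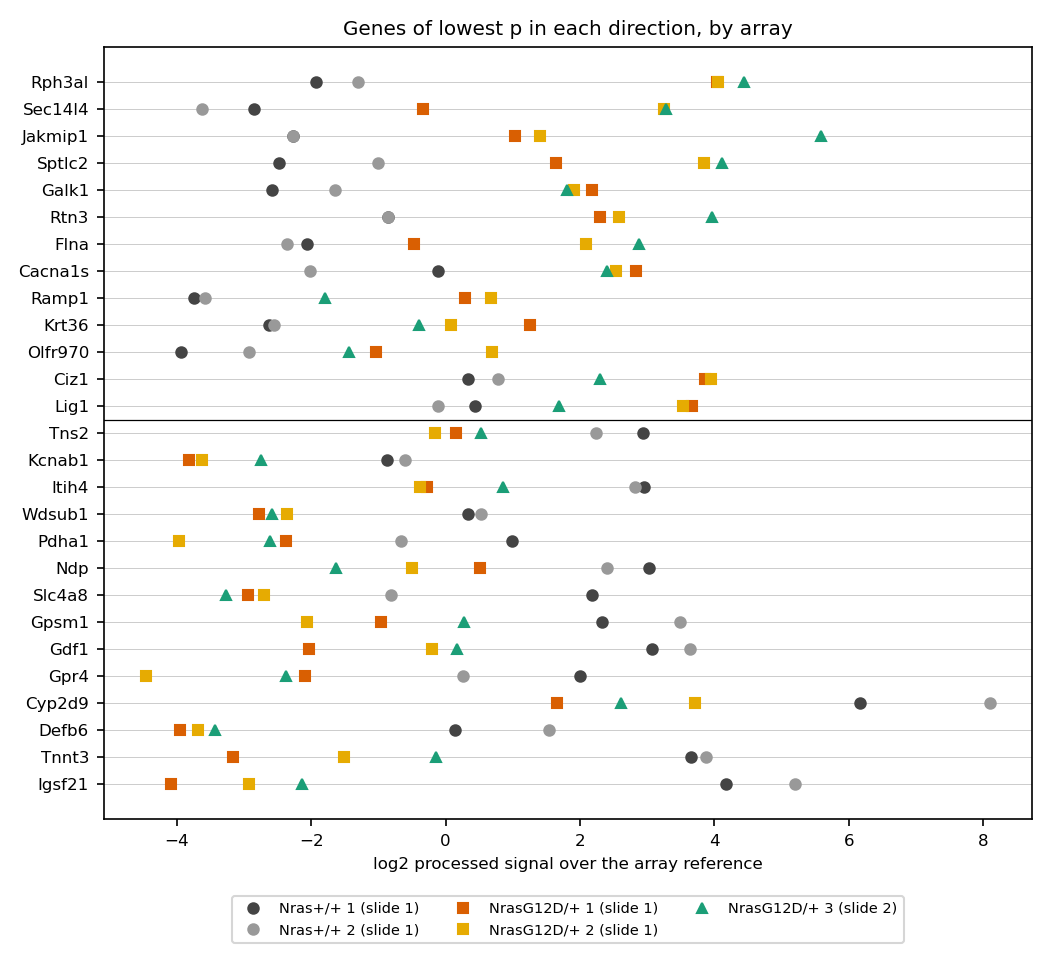
Level on each of the 5 arrays (horizontal axis, log2 processed signal over the array reference) for 13 of the genes of lowest p with a higher mean in NrasG12D/+ (above the line) and the 14 with a lower mean (below it). Circles are Nras+/+ arrays, squares NrasG12D/+ arrays on slide 1 and triangles the NrasG12D/+ array on slide 2; for every gene shown the groups do not overlap, which the choice of genes fixed.

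The question of the genotype begins with the Ras pathway itself. Nras stood at -2.79 and -2.18 in Nras+/+ and at -3.98, -3.31 and -2.78 in NrasG12D/+, a change of -0.87 (SE 0.70, limma adjusted p = 0.809; -0.57 without Nras+/+ array 2 and -0.56 without NrasG12D/+ array 1), and the third mutant array reached the level of a control. Its other 2 probes were well above background on 0 of the 8 arrays. By its mean level Nras belonged to the dimmest of the 4 classes above, which had a median change of -0.60. In that class NrasG12D/+ arrays 1, 2 and 3 had medians of -1.14, -0.82 and 0.01 relative to the control mean. Of 41 Ras proteins and direct regulators on the array, 11 were detected on all 5 arrays, 3 with a higher and 8 with a lower mean, and 0 at an unadjusted limma p under 0.05. Their median change was -0.87, or -0.47 relative to the genes described. For each group the range of the median with 1 of the 5 arrays left out is also given, called the array-out range, here -1.08 to -0.36. Lztr1, an adaptor that leads Ras proteins to degradation, had -3.05 and -2.61 against -3.09, 1.66 and -1.58 (change 1.83, SE 1.24, and 0.50 without NrasG12D/+ array 2). Shoc2, a scaffold that helps to activate RAF, had -0.57 and 0.42 against -2.65, -1.49 and -0.36 (change -1.42, SE 0.94, and -0.93 without Nras+/+ array 2 or -0.85 without NrasG12D/+ array 1). The groups overlapped for both. Also in this group, Mras had -1.19, with -0.80 from a further probe, and the adaptor Grb2 had -1.18. For both, all mutant arrays lay below both controls, a pattern of 18.2% of the genes described. The phosphatase Ptpn11, which acts upstream of Ras, had -0.90.

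The kinases downstream were spread around 0. Of 12 MAP kinase cascade genes 5 had a higher mean, 0 had an unadjusted limma p under 0.05, and the median change was -0.10 (array-out range -0.19 to 0.079). Map2k5, the MEK of the ERK5 branch, stood at -2.86 and -2.20 against -2.18, -1.13 and -1.07, a change of 1.07 (SE 0.76) in which all mutant arrays lay above the controls, the nearest by little. Map4k4, an upstream kinase of the JNK branch, had -2.13 (SE 1.48), with a mutant SD of 3.01, and -0.45 without NrasG12D/+ array 1. Map2k1, the MEK of the ERK branch, had -1.29, Braf -0.14 and Mapk3, which is ERK1, 0.08.

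Across the gene groups described here and below, the sign of the median turned under another scaling for the MAP kinase, ERK output, G2/M, oxidative phosphorylation, proteasome and FOXO groups. For the translation factor, Rab and splicing groups it turned with normexp background correction. No direction is given for any of these groups. Group medians are to be read beside the median of -0.39 over the genes described. Counts of genes in a group at an unadjusted limma p under 0.05 are to be read beside 2.31% higher and 2.43% lower over all genes tested.

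Genes that ERK induces did not form a block either. Of 14 ERK feedback and output genes 6 had a higher and 8 a lower mean, 0 had an unadjusted limma p under 0.05, and the median was -0.04 (array-out range -0.41 to -0.15), with single genes from -1.47 to 2.08. Dusp6, the phosphatase that switches ERK off, stood at -0.48 and -1.63 in Nras+/+ and at -3.41, -2.64 and -1.51 in NrasG12D/+ (change -1.47, SE 0.80, and -0.89 without Nras+/+ array 1). On slide 1 both mutant arrays lay below both controls, at a change of -1.97, but array 3 lay within the controls' range. Spry1, a Sprouty inhibitor, had -1.27 and the transcription factor Ets1 -1.09. Ccnd1, the G1 cyclin D1, stood at 0.89 and 2.33 against 0.10, -0.11 and 1.83 (change -1.0, SE 0.90, and -0.28 without Nras+/+ array 2 or -0.64 without NrasG12D/+ array 2). Plaur, the urokinase receptor, stood at -3.14 and -3.36 against 0.71, -1.56 and -2.66 (change 2.08, SE 1.42, and 1.14 without NrasG12D/+ array 1), while a further probe of the gene gave -0.87. Myc had 0.47, Fosl2 0.20 and Junb -0.06.

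ETS transcription factors are a class of nuclear ERK targets, and their core motif was counted in the 250 bases before each RefSeq start site (GRCm38.p6). CGGAAG on either strand occurred in 13.8% of 27025 promoters, in 19.3% of 4942 promoters of the genes described, in 17.0% of the 348 whose genes lay above both controls and in 19.0% of the 893 whose genes lay below. In the smaller groups it was present in 4 of 9 ERK feedback and output genes and in 12 of 24 cytosolic ribosomal protein genes. The promoters of Dusp6 (chr10:99262981-99263230, plus strand) and of Rpl38 (chr11:114668330-114668579, plus strand), the ribosomal protein gene described below, are shown as members of these groups, with each match in capitals. Dusp6 holds 1 match on the opposite strand and Rpl38 holds 2 side by side.
Dusp6: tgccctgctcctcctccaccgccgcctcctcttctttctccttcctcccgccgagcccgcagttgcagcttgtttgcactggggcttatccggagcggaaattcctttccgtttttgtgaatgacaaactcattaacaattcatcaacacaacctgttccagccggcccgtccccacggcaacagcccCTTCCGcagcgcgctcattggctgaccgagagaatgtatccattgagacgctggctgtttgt
Rpl38: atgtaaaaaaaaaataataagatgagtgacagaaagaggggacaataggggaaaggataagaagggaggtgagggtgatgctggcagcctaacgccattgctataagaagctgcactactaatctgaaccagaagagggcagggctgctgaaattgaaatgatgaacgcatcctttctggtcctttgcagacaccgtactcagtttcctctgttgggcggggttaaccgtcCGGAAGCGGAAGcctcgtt

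The PI3K, AKT and mTOR components had no direction that held over the arrays, since their median turned from -0.47 to 0.48 without Nras+/+ array 2. Of 14 PI3K, AKT and mTOR genes 6 had a higher mean (median -0.47, array-out range -0.72 to 0.48), and for 5 all mutant arrays lay below both controls, a pattern of 18.2% of the genes described. Mtor, the kinase of the growth pathway, named Frap1 in the files, stood at -2.54 and -2.30 against -4.72, -4.27 and -3.25 (change -1.66, SE 0.78). Pik3r4, a regulatory subunit of the class III PI3K, had -1.52 (SE 0.75). Of 14 JAK-STAT genes 4 had a higher mean (median -0.34, array-out range -0.70 to -0.086), with Stat4 at -1.71 and Stat3 at -1.33, the latter against 0.65 from a further probe. Stat4 was -0.63 without Nras+/+ array 1 and -0.95 without NrasG12D/+ array 1, and Stat3 -0.73 without Nras+/+ array 2 and -0.75 without NrasG12D/+ array 2. Of 12 cytokine receptors 4 had a higher mean (median -0.28, array-out range -0.88 to -0.17). Tgfbr1, the type I TGF-beta receptor, had -2.56 (SE 1.36), with -1.98 from a further probe, though its control values of -0.04 and 3.18 lay far apart and its change was -0.95 without Nras+/+ array 2. Bmpr2, the type II BMP receptor, stood at -0.82 and 2.67 against 0.10, -1.60 and -1.36 (change -1.88, SE 1.29), and had -0.13 without Nras+/+ array 2. No gene of these 3 groups had an unadjusted limma p under 0.05.

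**Figure D4:**
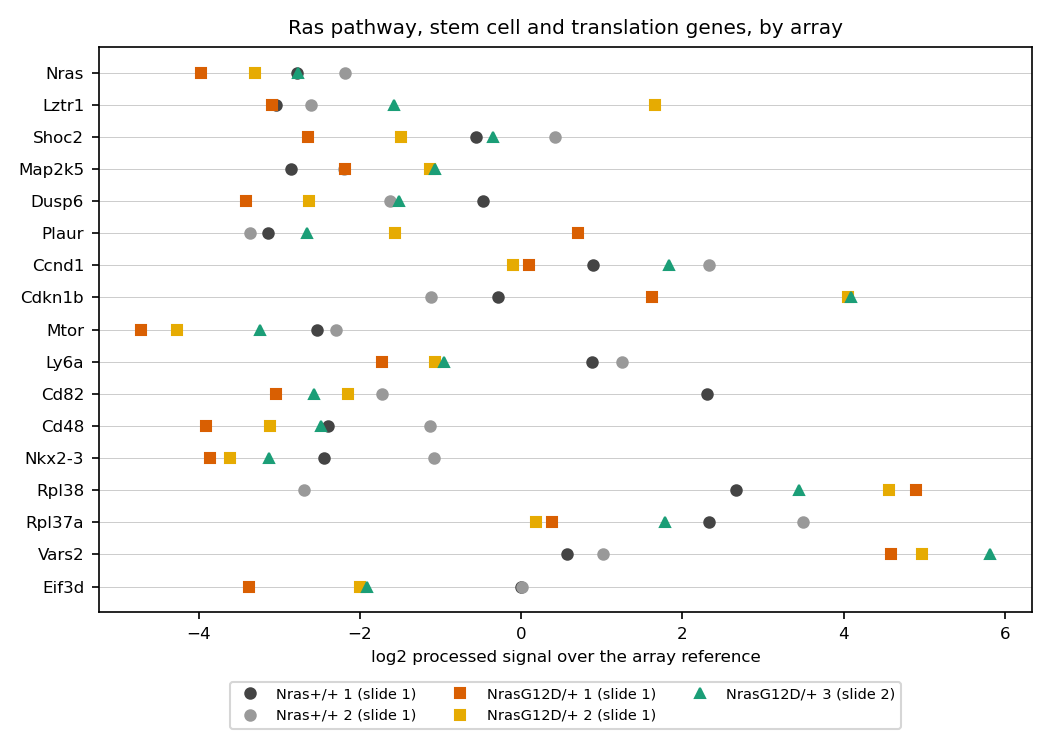
Level on each of the 5 arrays (horizontal axis, log2 processed signal over the array reference) for genes of the Ras pathway, the cell cycle, the stem cell surface and translation. Circles are Nras+/+, squares NrasG12D/+ on slide 1 and triangles NrasG12D/+ on slide 2; Ly6a lies at 0.87 and 1.25 in Nras+/+ and at -1.73 to -0.96 in NrasG12D/+, while for Nras and Dusp6 the triangle lies beside a control.

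Stem cell surface genes were mostly lower, as were all genes described, of which 64.5% had a lower mean. Of 17 detected on all 5 arrays 4 had a higher and 13 a lower mean, with a median of -0.54 (array-out range -0.81 to -0.50), or -0.15 relative to the genes described. An unadjusted limma p under 0.05 was given by 2 of the 13, beside 2.43% lower at that p over all genes tested. Ly6a, the Sca-1 antigen by which mouse stem cells are sorted, stood at 0.87 and 1.25 in Nras+/+ and at -1.73, -1.07 and -0.96 in NrasG12D/+. Its change was -2.32 (SE 0.89, limma adjusted p = 0.809), a 4.99-fold lower mean, and ranged from -2.60 to -1.81 over the alternative settings. The array of slide 2 lay with the mutant arrays of slide 1. Cd82, a tetraspanin of quiescent stem cells, stood at 2.30 and -1.72 against -3.04, -2.15 and -2.57 (change -2.87, SE 1.11), and the value was -0.86 without Nras+/+ array 1. Cd48, a SLAM protein that is low on HSCs and present on progenitors, stood at -2.39 and -1.13 against -3.91, -3.12 and -2.48 (change -1.41, SE 0.93, and -0.78 without Nras+/+ array 2). Among the other defining markers, the adhesion molecule Esam had -0.71 and the SLAM receptor Slamf1 -0.54.

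Of 19 stem cell transcription factors 5 had a higher and 14 a lower mean (median -0.28, array-out range -0.78 to -0.26). Relative to the genes described their median was 0.11, so the group was not lower than these. Nkx2-3, a homeobox factor, stood at -2.45 and -1.08 against -3.86, -3.61 and -3.13, a change of -1.77 (SE 0.73, and -1.08 without Nras+/+ array 2) and the 1 gene of the group at an unadjusted p under 0.05. Bmi1, the Polycomb protein needed for self-renewal, had -0.16 and 0.52 against -2.53 and -0.66, with no value on NrasG12D/+ array 3, so its change of -1.78 (SE 1.03) rests on slide 1 and was -0.84 without NrasG12D/+ array 1. Meis1 had -0.67, Runx1 -0.49 and Tal1 0.62. Of 14 adhesion and niche retention genes 10 had a lower mean (median -0.55, array-out range -0.72 to -0.44), among them the cadherin Cdh2 at -1.39 (SE 0.82), for which a further probe gave -0.09 and which had -0.55 without Nras+/+ array 2. The chemokine Cxcl12, a stromal marker named here after its values were seen, stood at -1.83 and 1.63 against -3.92, -4.81 and -2.92. It had the lowest change of the 5 endothelial and stromal markers detected on all 5 arrays. Among these 5 markers, 2 had a higher and 3 a lower mean, with changes up to 0.55. Their median change was -0.26, and 0.10 on slide 1.

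Cell cycle genes were heterogeneous, and the ones named had means on either side of the controls. Cdkn1b, the CDK inhibitor p27, stood at -0.29 and -1.11 in Nras+/+ and at 1.62, 4.05 and 4.09 in NrasG12D/+, a change of 3.96 (SE 1.82). Pml, the nuclear body protein needed for stem cell quiescence, stood at 4.94 and 3.20 against 2.18, 0.29 and 2.54 (change -2.40, SE 1.03, and -1.53 without Nras+/+ array 1). Both belong to the 13 quiescence regulators and CDK inhibitors, of which 6 had a higher mean (median -0.73, but 0.39 over genes with a probe detected on all 8 arrays, array-out range -0.70 to -0.15, 1 lower at an unadjusted limma p under 0.05). Of 18 G1/S and DNA replication genes 5 had a higher mean (median -0.76, array-out range -1.36 to -0.078, and -1.36 on slide 1). Lig1, described above, was the 1 gene of that group at an unadjusted p under 0.05, while Mcm4, a subunit of the replicative helicase, had -2.88 (SE 1.37), a value of -0.67 without Nras+/+ array 1. Of 26 G2/M and mitosis genes 10 had a higher mean (median -0.15, array-out range -0.33 to -0.16). Anapc11, the RING subunit of the anaphase-promoting complex, had 3.28 (SE 1.14), 2.08 without NrasG12D/+ array 3 and 0.64 from a further probe. The phosphatase Cdc25b had -1.31 (SE 0.73), -0.59 without Nras+/+ array 2 and -1.0 from a further probe.

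Genes of the translation machinery included the groups with the highest medians, which is a description and not a test. Of 35 cytosolic ribosomal protein genes 23 had a higher and 12 a lower mean in NrasG12D/+, with a median change of 0.96, or 1.36 relative to the genes described; 1 had an unadjusted limma p under 0.05 in each direction. The median level of the group was -1.31 and -1.29 on the Nras+/+ arrays and 2.24, 0.05 and -0.57 on the NrasG12D/+ arrays. All mutant arrays were above both controls, NrasG12D/+ array 1 by far the most, and without that array the median change was 0.17. Rpl38, a large-subunit protein, stood at 2.66 and -2.69 against 4.90, 4.56 and 3.45 (change 4.32, SE 1.37), and its change was 1.64 without Nras+/+ array 2. Rpl37a, also of the large subunit, had a lower mean, at 2.33 and 3.50 against 0.39, 0.18 and 1.78 (change -2.13, SE 0.79). Rpl34 and Rps29 had mean changes of 5.77 and 4.51, each with at least 1 mutant array near the controls, and the changes of the group ranged from -2.13 to 5.77. Ribosomal protein genes have many processed pseudogenes, so a probe may also read those.

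Aminoacyl-tRNA synthetases, the enzymes that load tRNAs with amino acids, had a higher mean for 8 of 10 genes, with a median change of 0.79, or 1.18 relative to the genes described. The median level of the group was -2.83 and -2.80 in Nras+/+ and -1.97, -1.87 and -1.68 in NrasG12D/+, so that the mutant arrays of both slides agreed and lay above both controls. Vars2, the mitochondrial valyl-tRNA synthetase, stood at 0.57 and 1.01 against 4.58, 4.97 and 5.81 (change 4.33, SE 1.59), but a further probe of it gave -1.32. Aars, the alanyl-tRNA synthetase, stood at -3.27 and -3.25 against -2.71, -1.94 and -0.92 (change 1.40, SE 0.97, and 0.93 without NrasG12D/+ array 3), and Sars, for serine, had 1.11 with groups that do not overlap. Only Vars2 of the 10 had an unadjusted limma p under 0.05. The median was 0.58 without NrasG12D/+ array 1 and 0.09 with normexp background correction.

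Translation factors were mixed. Of 28 initiation and elongation factors and their regulators 16 had a higher mean (median 0.19, array-out range -0.18 to 0.57, but -0.18 on slide 1). Eif3d, an eIF3 subunit named Eif3s7 in the files, had very close control values of -0.01 and 0.01 and mutant values of -3.37, -2.0 and -1.92 (change -2.43, SE 0.80). Eif4ebp2, a repressor of cap-dependent translation, had -1.61 (SE 0.82). Eef1g and Eif4g3 had 3.13 and 3.48, each with NrasG12D/+ array 1 far above the others, at 5.37 and 6.47. Of 24 MYC and ribosome biogenesis genes 6 had a higher mean (median -0.63, array-out range -0.97 to -0.35), with Bysl at 2.23 (SE 0.70) and -0.66 from a further probe, and Bop1 at -2.13 (SE 0.91), both at an unadjusted limma p under 0.05. Of 25 mitochondrial ribosomal protein genes 6 had a higher mean (median -0.28, array-out range -0.70 to -0.10), among the lower ones Mrpl32 at -1.30 (SE 0.85) and Mrps5 at -1.0 (SE 0.74).

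**Figure D5:**
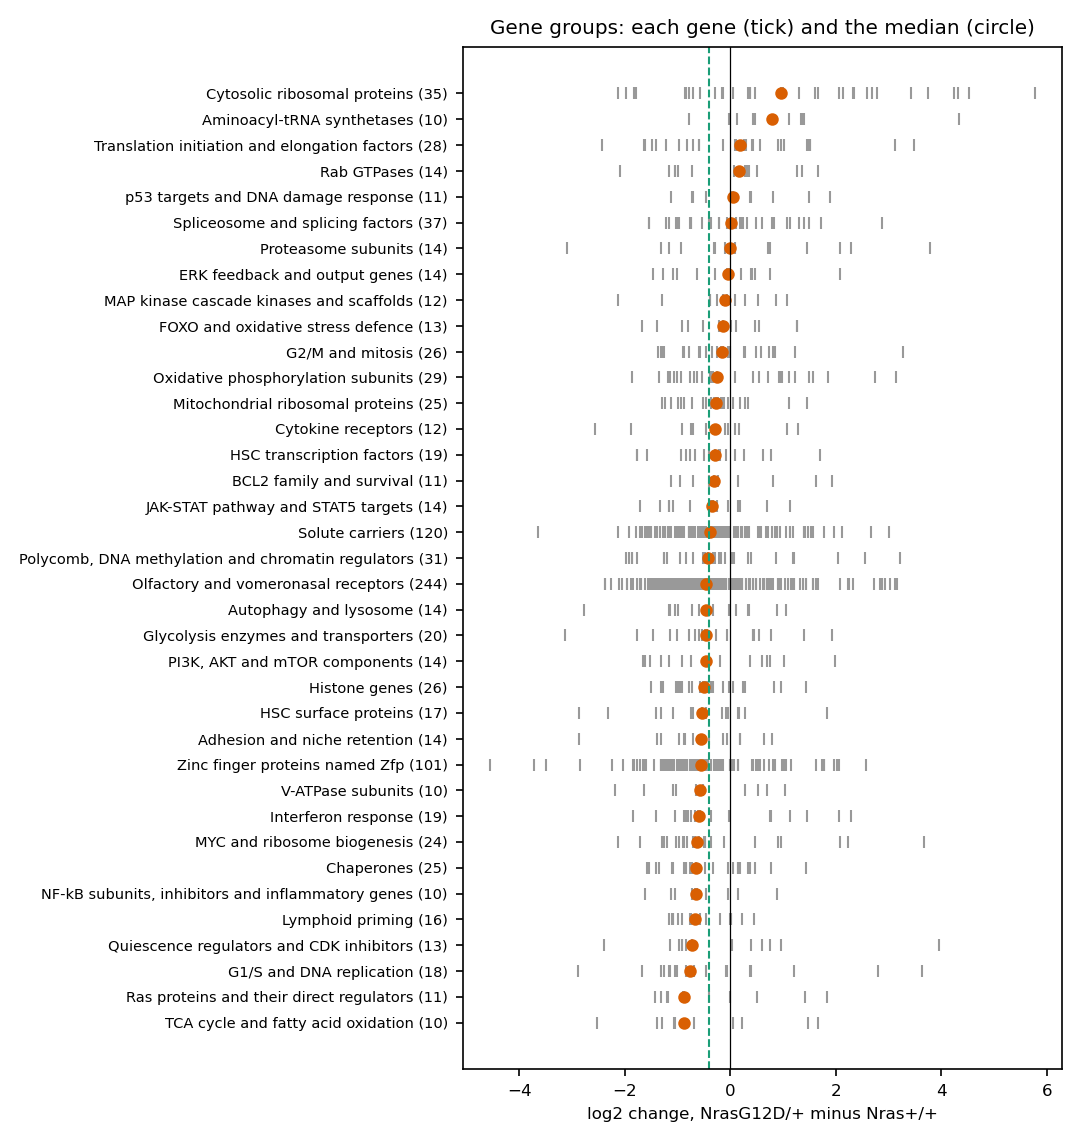
Log2 change, NrasG12D/+ minus Nras+/+ (horizontal axis), for 37 gene groups with the number of genes detected on all 5 arrays in brackets; each tick is a gene and each circle the median of the group. The dashed line is the median of the 7636 genes described, -0.39; the cytosolic ribosomal proteins, at 0.96, and the aminoacyl-tRNA synthetases, at 0.79, have the highest medians.

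Of 20 glycolysis genes 7 had a higher mean (median -0.46, array-out range -0.68 to -0.056). Among the lower ones, 2 had an unadjusted limma p under 0.05, beside 2.43% lower over all genes tested. These were Pdha1, with -0.91 from a further probe, and Hk3, a hexokinase of blood cells. Hk3 stood at 2.16 and 1.01 against -0.53, -0.41 and 0.42 (change -1.76, SE 0.75). Of 10 TCA cycle and fatty acid oxidation genes 4 had a higher mean (median -0.88, array-out range -1.56 to -0.084), with the subunits Sucla2 at -1.39 (SE 0.77) and Dlst at -2.52 (SE 1.42), the latter with controls at 2.66 and -2.23 and a value of -0.077 without Nras+/+ array 1. Of 29 oxidative phosphorylation subunits 14 had a higher mean (median -0.25, array-out range -0.30 to 0.044). Uqcrc1, a core protein of complex III, had 3.14 (SE 1.39) and Atp5k, of the ATP synthase, 2.73 (SE 1.37), in both cases with NrasG12D/+ array 1 as the highest array, at 2.19 and 6.67. Without that array the values of Uqcrc1 and Atp5k were 1.78 and 1.43.

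Protein turnover and stress groups did not all share a direction. The medians of the autophagy and lysosome, chaperone and V-ATPase groups were negative under every alternative, as was that of all genes described. Of 14 proteasome subunits 7 had a higher mean (median -0.01, array-out range -0.15 to 0.27). Psma7, an alpha subunit of the core, had 3.78 (SE 1.59), with mutant arrays at 3.33, -2.88 and 0.55, and 2.28 without NrasG12D/+ array 1. Psme3, the activator REG gamma, stood at 2.90 and 6.76 against 3.6, 2.16 and -0.55 (change -3.10, SE 1.53), and had -1.17 without Nras+/+ array 2, -5.03 without Nras+/+ array 1 and -1.95 without NrasG12D/+ array 3. Of 14 autophagy and lysosome genes 5 had a higher mean (median -0.46, array-out range -0.71 to -0.27). Sqstm1, the autophagy receptor p62, stood at 1.26 and -1.94 against -3.02, -3.42 and -2.91 (change -2.77, SE 0.95), which was -1.17 without Nras+/+ array 1, and Vps11, a subunit of vesicle tethering complexes, had 1.06, with 0.46 without Nras+/+ array 1, -0.13 from a further probe and a change of opposite sign with normexp background correction. Of 25 chaperone genes 9 had a higher mean (median -0.64, array-out range -0.79 to -0.20), with Dnajb11 at -1.58 and Dnajc3 at -1.41 (0.23 from a further probe of Dnajc3), both chaperones of the endoplasmic reticulum. Dnajc3 had -0.92 without Nras+/+ array 2 and -0.70 without NrasG12D/+ array 1. Of 10 V-ATPase subunits 4 had a higher mean (median -0.58, array-out range -1.10 to -0.11), with Atp6v1g1 at -1.63, or -1.05 without Nras+/+ array 2. Atp6v1e2 stood at 2.54 and 1.08 against -1.16, -3.24 and 3.29 (change -2.18, SE 1.69), and had -4.01 on slide 1, -1.45 without Nras+/+ array 1 and -0.74 without NrasG12D/+ array 2. Of 14 Rab GTPases 8 had a higher mean (median 0.17, array-out range -0.77 to 0.13, and -0.77 on slide 1), with Rab9 at -2.09 and Rab5c at -1.06 (Rab5c -0.47 without Nras+/+ array 2 and -0.70 without NrasG12D/+ array 2). Of 11 p53 targets and DNA damage genes 7 had a higher mean (median 0.06, array-out range -0.13 to 0.58), with the nuclease Mre11a at 1.89 and the polymerase Polk at -1.11. Mre11a had 1.20 without Nras+/+ array 1 and 0.73 without NrasG12D/+ array 1, and Polk -0.38 without Nras+/+ array 2. Of 13 FOXO and oxidative stress genes 6 had a higher mean (median -0.14, array-out range -0.46 to 0.14), with Gstp1 at -1.67 (-1.09 without Nras+/+ array 2) and Gpx3 at -1.39. Of 11 genes of the BCL2 family and survival 4 had a higher mean (median -0.31, array-out range -0.47 to -0.093), with the death effectors Bak1 at 1.92 (0.95 without NrasG12D/+ array 1) and Bok at -1.12.

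Of 19 interferon response genes 6 had a higher mean (median -0.58, array-out range -0.96 to 0.06). Tap2, a peptide transporter for antigen presentation, stood at 0.50 and 0.43 against -1.77, -0.89 and -0.14 (change -1.40, SE 0.78), and the immunoproteasome subunit Psmb9 stood at -2.78 and -1.95 against 0.31, -1.40 and -1.64 (change 1.46, SE 0.82, and 0.85 without NrasG12D/+ array 1). These partners in antigen processing thus had opposite values, each with groups that do not overlap. Of 10 NF-kB and inflammatory genes 2 had a higher mean (median -0.65, array-out range -1.06 to -0.29), with Tnip1, an inhibitor of the pathway, at -1.61 (-0.86 without Nras+/+ array 1) and the adaptor Myd88 at -1.13. Of 16 lymphoid priming genes 4 had a higher mean (median -0.66, array-out range -0.77 to -0.40), with Tcf4 at -1.15 and Vpreb3 at -1.08 (-0.33 from a further Vpreb3 probe). Of 31 Polycomb, DNA methylation and chromatin regulators 10 had a higher mean (median -0.42, array-out range -0.79 to -0.11), with the dioxygenase Tet3 at -1.98 (SE 0.91), or -1.23 without Nras+/+ array 1. The BAF subunit Smarcd2 stood at -0.67 and 2.19 against -0.68, -1.21 and -1.39 (change -1.86, SE 0.90), and had -0.43 without Nras+/+ array 2. Of 37 splicing genes 19 had a higher mean (median 0.01, array-out range -0.13 to 0.11), with Tra2b at -1.54 and Sf3b1 at -1.54, the latter -0.88 without Nras+/+ array 2. Of 26 histone genes 6 had a higher mean (median -0.49, array-out range -0.85 to -0.21), the variants H2az2 and Macroh2a3 at -1.50 and -0.93, the latter -0.41 without NrasG12D/+ array 1.

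Large families with many unrelated genes gave the level of spread to read these against. Of 244 olfactory and vomeronasal receptors, which HSCs are not known for, 78 had a higher mean (median -0.45, array-out range -0.74 to -0.25). Above both controls lay 6.97% of them and below both 21.3%, beside 8.77% and 16.2% over all genes tested. These receptors were detected on all 5 arrays for 23.3% of their genes on the array, against 27.7% of all gene names. At an unadjusted limma p under 0.05, 5 of the 244 had a higher and 4 a lower mean, beside 2.31% and 2.43% over all genes tested. Among the 5, Olfr970 had 2.84 and Olfr1269 3.16. Of 120 solute carriers 38 had a higher mean (median -0.38, array-out range -0.72 to -0.27), with Slc4a8 and Slc7a9, a subunit of a cystine transporter, at -3.65 and -1.79. Of 101 Zfp zinc finger genes 28 had a higher mean (median -0.56, array-out range -0.73 to -0.41), with Zfp60 at -3.50 and Zfp672 at -3.71, the latter -1.37 without Nras+/+ array 2.

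Further probes of the same gene offered a check within these arrays. For 744 genes with 2 or more probes detected on all 5 arrays, 815 further probes could be set beside the tested one, and 468 of them (57.4%) had a change of the same sign. Where the tested probe had an absolute change over 2, which held for 71 further probes, 37 had the same sign and 18 also exceeded 1. In the direction of the tested probe the median was 2.56 for the tested and 0.03 for the further probe. Of 730 genes with 2 or more such probes and no missing value, 31 had groups that do not overlap on every probe, 29 lower (3.97%) and 2 higher (0.274%), whereas 180 did so on the first probe alone, and in 14 every probe had an absolute change over 1. On the tested probe, 18.2% of all genes described lay below both controls and 6.78% above. The share that unrelated probes would give was not tested. For 10 of the 14 the probes share no base, and these were all lower, the direction of 29 of the 31. Their names were picked with the values in view. Among them, Adamts10, a metalloproteinase, had -1.89 and -1.50, and Cactin, named 2510012J08Rik in the files, -2.13 and -1.34. The kinase Wnk1 had -1.55 and -1.0, and the RNA-binding proteins Elavl3 and Rbms1 -1.37 and -1.17, and -1.08 and -1.43. Kin had -1.50 and -1.16 and Morc2a -1.15 and -1.88. For Cactin the mutant arrays stood at -1.19, -1.22 and -0.45 on 1 probe against 2.22 and 0.12 in Nras+/+. On the other Cactin probe they stood at -3.02, -3.21 and -3.28 against -1.74 and -1.92. The choice of genes fixed that each mutant array, also that of slide 2, lay below both controls on each probe.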

How the data were processed

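Each sample was hybridised to 1 Agilent array. Per the file headers, the deposited scanner files are output of Agilent Feature Extraction 10.5.1.1, and the processed signal is a background-subtracted intensity on a linear scale, not scaled between arrays; flags of 0 or 1 mark spots well above background. The deposited value table is a ratio, equal to the processed signal over each array's median within 1.7e-06. Control spots were left out and spots with an outlier flag set to missing. A probe was well above background on an array if most of its spots were. Log2 signals were averaged per probe and scaled to the 75th percentile of the 6576 probes that met this on each of the 8 arrays. A gene took its brightest probe detected on all 5 arrays, otherwise its brightest detected on 2 or more of 8. Genes were tested with limma 3.58.1 in R 4.3.3 (lmFit and eBayes, 3 groups, two-sided, threshold 0.05), with Benjamini-Hochberg adjustment over 15081 genes; prior SD was 1.04 with 3.90 prior degrees of freedom beside 5 residual ones. The fit was tested on simulated data. The number of arrays limits the precision.

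Names came from a RefSeq table (GRCm38.p6). The text names the 14 genes of lowest p per direction with a RefSeq symbol, values on all 5 arrays and groups that do not overlap, then Nras, Ly6a, Dusp6, Ccnd1 and Cd48, and the 2 of lowest p in each of 37 lists; other genes were added as examples after their values were seen. Some genes that the rule names are withheld and not reported here, though counts include them. The members and lists were chosen with earlier results of these data known. Changes are not corrected for the median of all genes. Same-numbered samples did not deviate together (correlations of -0.09 to 0.08), so the numbers do not pair them. The alternatives covered scaling, background correction, filters, probe choice, blocks, weights and each array left out.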

Additional observations from a re-analysis of the deposited data

How the results depend on the processing

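The number of genes called was 0 in the main setting. It was 1, Nacc2, which is not among the genes described, with scaling over all probes, quantile normalization, no filter on dim probes or array weights, and 0 to 10 when 1 array was left out. Of the 10 without Nras+/+ replicate 2, B4galt3 and Ptprz1 are described genes, whose control arrays stood at 7.09 and -1.85 and at -2.69 and 10.2. Among the genes described, those with a higher mean at an unadjusted limma p under 0.05, 106 in the main setting, were 177 with scaling to the median, 170 with the slide as a block, 210 on slide 1 alone, 177 with array weights and 39 to 170 with 1 array left out. Those with a lower mean, 138, were 251 with quantile normalization, 249 with normexp, 218 with no filter, 336 with the slide as a block, 265 on slide 1 alone, 227 with array weights and 80 to 336 with 1 array left out. The share of lower genes among them was 56.6%, against 36.6% with scaling to the median, 68.6% with quantile normalization, 70.5% with normexp, 66.4% with the slide as a block, 77.5% and 78.1% without Nras+/+ replicates 1 and 2, and 37.4% and 41.1% without NrasG12D/+ replicates 1 and 2. Genes above both controls, 518, were 801 with scaling to the median, 328 with normexp, 875 on slide 1 alone and 875 to 1131 with 1 array left out. Genes below both controls, 1391, were 3210 on slide 1 alone and 1753 to 3210 with 1 array left out; fewer arrays overlap less by construction. Otherwise the cause was not tested.

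With the replicate number as a block, which the samples do not bear out, 148 genes had a higher and 224 a lower mean at an unadjusted p, and 0 were called. Of 100 named genes 99 had the same sign under every alternative; Vps11 reversed from 1.06 to -0.045 with normexp. The lowest adjusted p of a named gene over the alternatives was 0.203. Of the 37 gene group medians 28 had the same sign under the 4 other scalings, normexp background correction counted among them. Those of the cytosolic ribosomal proteins and the aminoacyl-tRNA synthetases were the positive ones with the same sign under every alternative. Signs turned under a scaling for the ERK output, MAP kinase, FOXO, G2/M, oxidative phosphorylation and proteasome groups, and with normexp for the Rab, splicing and translation factor groups. The sign also turned without Nras+/+ replicate 2 for the PI3K, AKT and mTOR group (-0.47 to 0.48) and the interferon group (-0.58 to 0.06), without Nras+/+ replicate 1 (-0.076) and NrasG12D/+ replicate 1 (-0.13) for the p53 group (0.06), and over probes detected on all 8 arrays for the quiescence (-0.73 to 0.39) and BCL2 (-0.31 to 0.15) groups.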
